A study of Homo sapiens with 108 samples.

Results

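The mRNAs described here encode the machinery that degrades mRNA itself. They are 51 genes listed by function, of 19761 genes in the deposited tables: 12 of the CCR4-NOT deadenylase complex, 3 other deadenylase genes (PAN2, PAN3 and PARN), 15 of decapping, 2 of 5′ to 3′ exonucleases, 12 of the exosome and 7 of nonsense-mediated decay (NMD). The rule uses no measured value, and all 51 were found by symbol after the counts of 3′ UTR intervals were summed per Ensembl gene. All 51 also passed the filter on low counts in every comparison of mRNA level.

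In human cells most mRNAs are destroyed after their poly(A) tail is shortened, first by PAN2-PAN3 and then by CCR4-NOT, whose scaffold CNOT1 carries the catalytic pairs CNOT6 or CNOT6L and CNOT7 or CNOT8. A ring of LSM1 to LSM7 with PATL1 then binds the short tail, the DCP2 enzyme with DCP1A or DCP1B removes the cap, and XRN1 digests the body from the 5′ end, while the exosome with DIS3, DIS3L or EXOSC10 digests from the 3′ end. NMD, which starts with the helicase UPF1, sends mRNAs with a premature stop codon into the same pathway. CNOT4, a RING-finger E3 ubiquitin ligase that joins CCR4-NOT, is both a member here and a target of the study.

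Each mRNA was measured by SLAM-seq, in which cells take up 4-thiouridine (4SU) and alkylated 4SU is read as a T>C conversion. HEK293T cells, a line derived from human embryonic kidney that expresses the SV40 large T antigen, were transduced with lentivirus carrying a short hairpin RNA and selected with puromycin. There were 9 arms, one with a non-targeting hairpin (NT) and 8 with hairpins against ZNF706, ZMAT5, ZMAT3, ZFP36L1, PHF7, MAZ, CNOT4 or BRCA1, and every arm, NT included, received 10 uM 4SU for 24 h and then a chase in 1 mM uridine. Cells were collected at 0, 2, 4 and 8 h of chase with 3 biological replicates, which gave 12 libraries per arm and 108 in all. The series asked whether zinc-finger proteins that bind RNA set mRNA lifetime, and the question followed below is whether the mRNAs of the decay machinery changed in level or in loss of label. All 8 comparisons share the same 12 NT libraries, so their results are not independent of each other. In bulk RNA, fewer cells of a kind and less RNA per cell cannot be told apart.

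The sequences that carry these comparisons are short and lie on hg38. The study's list of hairpins gives one sense stretch for CNOT4 (gene at chr7:135361795-135510145, minus strand), shown because it would remove the one member that is also a target. Its 21 bases span a junction of coding exons, 15 bases of exon 9 at chr7:135395634-135395648 and 6 bases of exon 10 at chr7:135394410-135394415, of 12 exons. The methods state that SLAM-seq knockdowns were made, and checked by qPCR, as for RNA-seq. They do not name the clone used here, and qPCR values were not analysed here.
CNOT4 hairpin: gcctcttcacatcagaaacaa
The counted 3′ UTRs were also searched on the sense strand for TATTTAT, a core of AU-rich elements, and TGTANATA, the core bound by Pumilio proteins. The sites below, printed with their motif in capitals, belong to 3 mRNAs with short half-lives and to LSM5, which holds the same 8 bases as CNOT4 and a long half-life.
CNOT4, chr7:135386237-135386260, minus strand: tgtgtgcaTGTACATAtgtccatt
LSM5, chr7:32486241-32486264, minus strand: cattaataTGTACATAgtattaaa
DCP1A, chr3:53286445-53286467, minus strand: atgatttcTATTTATtcttttat
EXOSC6, the first of 6 such sites, chr16:70250177-70250199, minus strand: tcatttgcTATTTATtctcttct

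Libraries held 63659 to 30750027 reads in 3′ UTRs, with a median of 14870063, and 102 of the 108 libraries detected all 51 members. Libraries labelled CNOT4 and ZFP36L1 stood apart, with 27.7 to 34.0 and 25.9 to 33.0 T positions per read against 37.1 to 37.8 in NT, and with 5.82% to 11.9% and 9.21% to 12.4% multimapped reads against 6.66% to 6.91%. Within CNOT4 the 8 h libraries held 5.82% to 5.91% multimapped reads against 9.35% to 11.9% at earlier times, and the headers of these 3 files name the sample kind pulse-chase where those of the other 105 libraries name it chase. The shallowest libraries were PHF7 8 h replicate 3, with 63659 reads in all and 26 members detected, and CNOT4 2 h replicate 3, with 1781724 reads and 37 members. With uniquely mapped reads 67 of 74 calls of members described below were kept, without the shallow library of CNOT4 and of PHF7 29 of 29, and without the 8 h libraries 64 of 76. The part of T positions per read in any result was not tested. Of 6 markers of the line, VIM stood at 710 and NEFM at 45.7 CPM in NT, whereas PAX2 was near 0. Of 13 markers of blood, endothelium, fibroblasts, liver, pancreas and muscle, 2 were over 1 CPM in NT, and their summed level ranged from 4.51 to 36.8 CPM there, 9.96 to 37.6 CPM in CNOT4 and 13.0 to 25.6 CPM in ZFP36L1. PTPRC, PECAM1, DCN and ALB were at 0 in NT.

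CNOT4 mRNA was not lower by sequencing in the libraries labelled CNOT4. Its normalised level there ranged from 0 CPM, in the shallow 2 h library, to 81.3 CPM with a median of 52.6 CPM. In NT it ranged from 22.8 to 70.5 CPM with a median of 43.4 CPM, so the arms overlapped over most of their range. The means, with SD over 12 libraries each, were 47.1 ± 21.2 and 46.9 ± 14.3 CPM. The log2 change was -0.04 with an SE of 0.34 and was not called (edgeR adjusted p = 0.954). Protein was not measured here. Of the 8 targets, 4 were called lower in their own arm (MAZ, ZMAT3, ZMAT5 and ZNF706). BRCA1 (log2 change -0.91, edgeR adjusted p = 0.220) and PHF7 (-2.07, edgeR adjusted p = 0.336), at 4.24 CPM in NT, were not called, and ZFP36L1 was higher in the libraries labelled ZFP36L1 (0.80, edgeR adjusted p = 0.0023). The CNOT4 and ZFP36L1 arms are therefore named by their labels. CNOT4 rose in 1 arm, ZFP36L1, to 67.9 ± 11.9 CPM (log2 change 0.56 ± 0.15, edgeR adjusted p = 0.0026), and that change held under each alternative tried. Its log2 change in the other 6 arms lay between -0.07 in ZMAT5 and 0.39 in ZMAT3, none called.

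**Figure D1:**
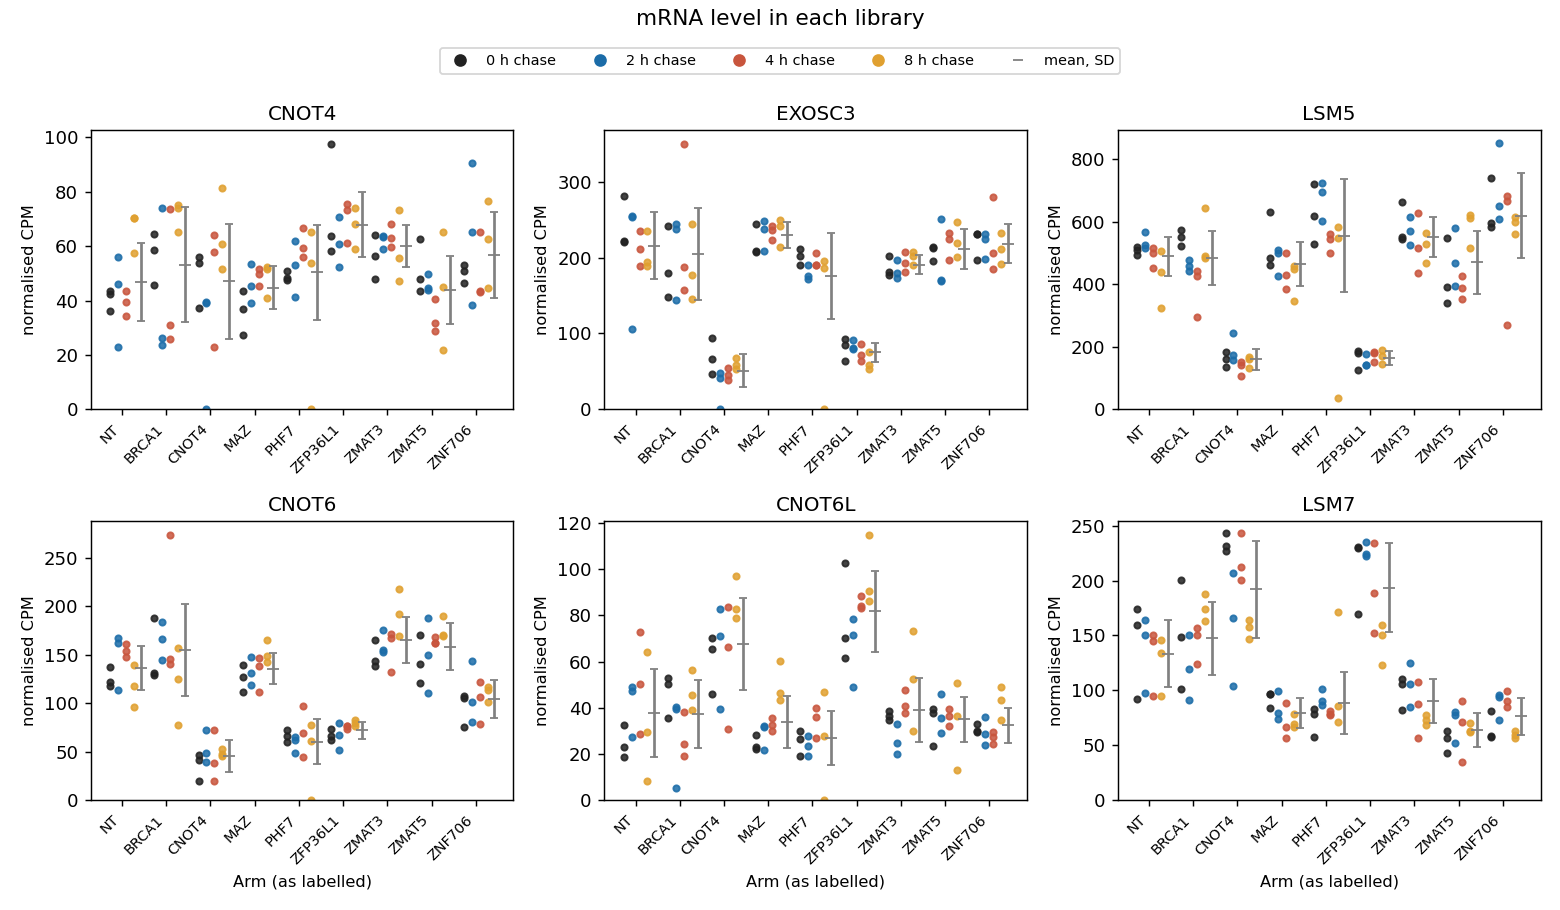
mRNA level of CNOT4, EXOSC3, LSM5, CNOT6, CNOT6L and LSM7 in each of the 108 libraries. The y axis is TMM-normalised CPM on a linear scale from 0, the x axis the 9 arms as labelled, colours mark the chase time, and the grey bar is the mean with SD over 12 libraries. CNOT4 overlaps NT in every arm, EXOSC3 and LSM5 are lower in CNOT4 and ZFP36L1, and LSM7 is lower in 5 arms and higher in those 2.

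A member was called when edgeR's quasi-likelihood test gave an adjusted p under 0.05 over all genes and a fold over 1.2. In all, 30 members were called in at least 1 arm and 21 in none, and 76 pairs of member and arm were called, 28 higher and 48 lower than NT. The share of all genes called in at least 1 arm was not computed. In CNOT4, 8 members were higher and 14 lower, against 13.5% of all 13308 genes each way. In ZFP36L1, 11 were higher and 15 lower, against 21.7% and 18.3% of 13253 genes. These 2 arms held 48 of the 76 calls. They also held the most calls over all genes, 3588 in CNOT4 and 5296 in ZFP36L1 against 10 in BRCA1 to 1363 in ZMAT3. The members' median log2 change was -0.08 in CNOT4, where that of all genes was 0.08, and -0.02 in ZFP36L1, where that of all genes was 0.15. Called members made up 43.1% of the list in CNOT4 against 27.0% of all genes, and 51.0% in ZFP36L1 against 40.0%, and nothing particular to the list is read from this.

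The remaining arms held fewer calls. In MAZ 2 members were higher (5.19% of all 13398 genes) and 4 lower (3.55%). In PHF7 2 were higher (3.89% of 13324 genes) and 5 lower (4.53%). In ZMAT5 2 were higher (5.29% of 13149 genes) and 5 lower (4.22%). In ZMAT3 1 was higher (5.49% of 13307 genes) and 3 lower (4.75%), and in ZNF706 2 were higher (2.85% of 13072 genes) and 2 lower (2.29%). Called either way were 11.8% of the list and 8.74% of all genes in MAZ, 13.7% and 8.41% in PHF7, 13.7% and 9.51% in ZMAT5, 7.84% and 10.2% in ZMAT3, and 7.84% and 5.15% in ZNF706, so that the list stood near its background. In BRCA1 edgeR called 0 members, where 0.0785% of 12735 genes were called either way. At an unadjusted p under 0.05 there were 2 members, against 6.89% of all genes. DESeq2 called 1, EDC4, where it called 30 genes higher and 23 lower of 12735. Counts fell when replicates were left out of both arms: CNOT4 to 13 of 22 without replicate 2, MAZ from 6 to 1 without replicate 3 and to 3 without replicate 1 or 2, PHF7 from 7 to 1 without replicate 1 or replicate 2, and ZNF706 from 4 to 1 without replicate 1 and 2 without replicate 2. Calls over all genes fell too. In CNOT4 they went from 1794 higher and 1794 lower to 894 and 1025 without replicate 2. In MAZ they went from 696 and 475 to 289 and 229 without replicate 3. Without replicate 1 they went from 518 and 603 to 84 and 195 in PHF7, and from 373 and 300 to 135 and 143 in ZNF706. In PHF7, leaving out replicate 1 or 2 kept the shallow 8 h library. Without that library 9 members were called (1068 genes higher and 854 lower of 13746), and without replicate 3 also 9 (624 and 580 of 13495).

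**Figure D2:**
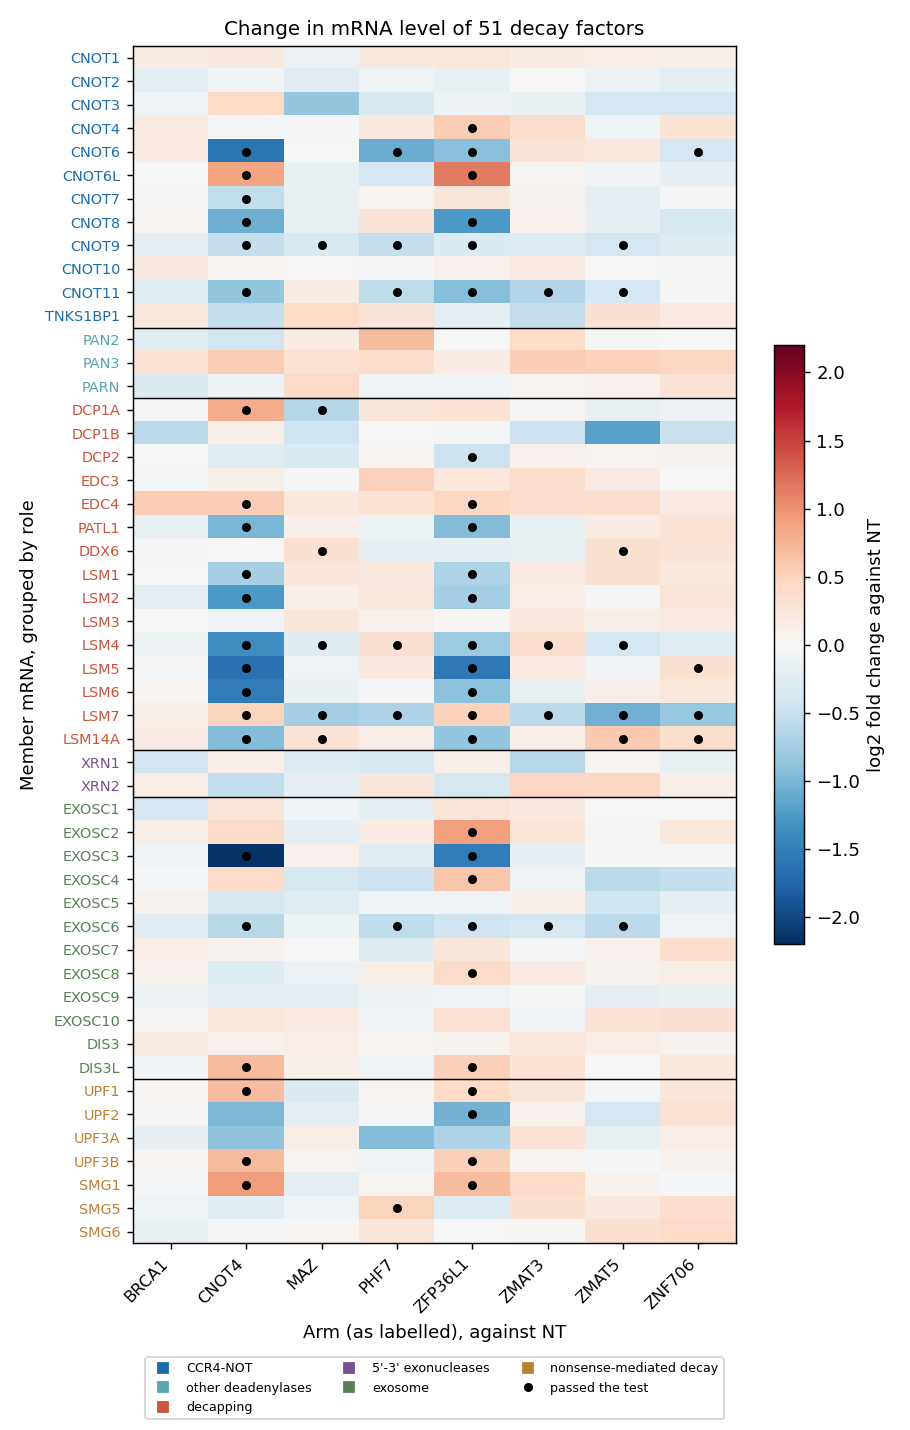
Log2 change against NT of each of the 51 members (y axis, ordered by role) in the 8 hairpin arms (x axis). Colour gives the log2 change and a dot marks a change that passed the test. Dots gather in the CNOT4 and ZFP36L1 columns, which hold 48 of the 76 calls, and the BRCA1 column holds none.

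Among the CCR4-NOT genes, all 4 catalytic subunits, CNOT4, CNOT9 and CNOT11 were called in some arm, and the scaffold CNOT1 in none. CNOT6, a deadenylase subunit, ranged from 96.4 to 167 CPM in NT with a median of 138 CPM, from 19.6 to 72.5 CPM in CNOT4 with a median of 46.0 CPM, and from 51.8 to 82.9 CPM in ZFP36L1 with a median of 74.5 CPM. Neither of these arms overlapped NT. Here and below, the share of all genes without overlap was not computed, so lack of overlap does not set a member apart. CNOT6 fell by 1.60 on the log2 scale in CNOT4 (SE 0.19, edgeR adjusted p = 9.1e-08), by 0.92 in ZFP36L1 (SE 0.10, edgeR adjusted p = 6.1e-09) and by 1.10 in PHF7 (SE 0.17, edgeR adjusted p = 2.4e-05). In PHF7 its level reached from 0, in the shallow library, to 97.3 CPM. It also fell in ZNF706, by 0.38 (SE 0.12, edgeR adjusted p = 0.047), a call lost under 6 of 9 alternatives: without a low-count filter, with uniquely mapped reads, without each single replicate, and against the other 7 knockdowns, where the change was 0.04.

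CNOT6L, the close relative of CNOT6 that takes the same place in the complex, rose in CNOT4 and ZFP36L1, where CNOT6 fell. Its level ranged from 8.44 to 73.0 CPM in NT with a median of 31.1 CPM, from 30.8 to 97.0 CPM in CNOT4 with a median of 70.6 CPM, and from 49.0 to 115 CPM in ZFP36L1 with a median of 83.7 CPM. The ranges overlapped. CNOT6L rose by 0.87 in CNOT4 (SE 0.27, edgeR adjusted p = 0.016) and by 1.15 in ZFP36L1 (SE 0.22, edgeR adjusted p = 5.5e-05). The call in CNOT4 was lost without replicate 1, without replicate 2 and without the 8 h libraries. That in ZFP36L1 was kept in each alternative. In PHF7, where CNOT6 fell, CNOT6L stood at 27.0 ± 11.7 CPM against 37.7 ± 19.2 CPM in NT and was not called.

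The second catalytic pair, CNOT7 and CNOT8, is also exchangeable. CNOT8 fell by 1.07 in CNOT4 (SE 0.28, edgeR adjusted p = 0.0048) and by 1.26 in ZFP36L1 (SE 0.23, edgeR adjusted p = 4.0e-05). Its NT libraries ranged widely, from 9.78 to 170 CPM, and overlapped those of both arms. CNOT7 fell in CNOT4 alone of the 8 arms by this test, by 0.54 (SE 0.17, edgeR adjusted p = 0.018), from 177 ± 38.7 to 123 ± 36.7 CPM. That call was lost with uniquely mapped reads (-0.43) and without replicate 1 (-0.71), 2 (-0.55) or 3 (-0.36). In ZFP36L1 it stood at 212 ± 33.6 CPM, a log2 change of 0.25 that was under the fold threshold.

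Of the other subunits, CNOT11, which binds the N-terminal part of CNOT1 together with CNOT10, fell in 5 arms. Its levels were 193 ± 32.3 CPM in NT, 101 ± 16.3 CPM in ZFP36L1, 108 ± 26.2 CPM in CNOT4, 124 ± 12.9 CPM in ZMAT3, 130 ± 10.1 CPM in PHF7 and 147 ± 17.3 CPM in ZMAT5. The ZFP36L1 libraries, 65.1 to 129 CPM, did not overlap NT, 133 to 251 CPM. The changes ran from -0.94 in ZFP36L1 (SE 0.10, edgeR adjusted p = 3.6e-09) to -0.39 in ZMAT5 (SE 0.09, edgeR adjusted p = 0.0043). CNOT9, the subunit that binds tryptophan-rich motifs of adaptor proteins, also fell in 5 arms, by 0.30 in ZFP36L1 to 0.53 in CNOT4, with MAZ, PHF7 and ZMAT5 between them. Against the other 7 knockdowns all 5 calls of CNOT9 were lost, and CNOT11 kept its call in CNOT4 and ZFP36L1 only. In that comparison CNOT9 was 0.02 higher in MAZ and 0.07 higher in ZFP36L1, and CNOT11 was 0.05 higher in ZMAT5. CNOT1, CNOT2, CNOT3, CNOT10 and TNKS1BP1 were called in no arm. CNOT1 stayed within -0.13 to 0.23 on the log2 scale over the 8 arms.

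PAN2, PAN3 and PARN were called in no arm. The PAN2 catalytic subunit was one of the least abundant members by read count, 12.8 ± 6.95 CPM in NT, with arm means from 9.92 CPM in CNOT4 to 24.3 ± 21.9 CPM in PHF7. PARN, a deadenylase of the nucleus and of small RNAs, stood at 44.6 ± 17.3 CPM in NT, with arm means from 36.3 CPM in BRCA1 to 60.2 CPM in MAZ. Its reads were 99.3% multimapped and could not be assigned to 1 place.

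Among the decapping genes, 5 subunits of the LSM1-7 ring fell in both CNOT4 and ZFP36L1, and LSM7 rose there. LSM5 ranged from 325 to 566 CPM in NT with a median of 508 CPM, from 107 to 243 CPM in CNOT4 with a median of 159 CPM, and from 127 to 190 CPM in ZFP36L1 with a median of 174 CPM. No library of either arm reached the lowest NT library. LSM5 fell by 1.64 in CNOT4 (SE 0.11, edgeR adjusted p = 2.5e-13) and by 1.57 in ZFP36L1 (SE 0.09, edgeR adjusted p = 8.4e-17). In ZNF706 it rose by 0.34 (SE 0.10, edgeR adjusted p = 0.037).

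Other ring subunits fell with it in the same 2 arms. LSM4 went from 459 ± 60.8 CPM in NT to 179 ± 36.3 CPM in CNOT4 (log2 change -1.37 ± 0.11, edgeR adjusted p = 4.9e-11) and 264 ± 27.2 CPM in ZFP36L1 (-0.80 ± 0.07, edgeR adjusted p = 3.2e-11). LSM6 went from 105 ± 27.5 CPM to 36.3 ± 14.8 CPM (-1.54 ± 0.32, edgeR adjusted p = 0.00041) and 55.9 ± 7.68 CPM (-0.91 ± 0.13, edgeR adjusted p = 5.8e-07). Neither LSM4 nor LSM6 overlapped NT in either arm. LSM1, which sets this cytoplasmic ring apart from the nuclear LSM2-8 ring, fell by 0.73 in CNOT4 and by 0.67 in ZFP36L1. LSM2 fell by 1.26 and 0.76, but its reads were 100% multimapped, so no value from uniquely mapped reads exists. LSM3 was called in no arm.

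LSM7 moved against the rest of the ring. It ranged from 92.1 to 174 CPM in NT with a median of 145 CPM, from 104 to 244 CPM in CNOT4 with a median of 204 CPM, and from 123 to 236 CPM in ZFP36L1 with a median of 206 CPM. It rose by 0.49 in CNOT4 (SE 0.14, edgeR adjusted p = 0.0091) and by 0.51 in ZFP36L1 (SE 0.12, edgeR adjusted p = 0.00053). In the other 5 arms where it was called it fell, by 1.06 in ZMAT5 (SE 0.15, edgeR adjusted p = 2.1e-06), 0.83 in ZNF706, 0.76 in MAZ, 0.68 in PHF7 and 0.58 in ZMAT3. The ZMAT5 libraries, 35.1 to 90.3 CPM, lay wholly below NT. LSM4 too went both ways, up by 0.34 in PHF7 and 0.36 in ZMAT3, and down by 0.27 in MAZ and 0.38 in ZMAT5. Against the other 7 knockdowns the fall of LSM4 in MAZ became a rise of 0.05, not called, and its call in ZMAT5 was lost. LSM7 fell and LSM4 rose in PHF7 and ZMAT3, while both fell in MAZ and ZMAT5.

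Of the factors outside the ring, PATL1, which bridges the ring and the decapping enzyme, fell by 1.01 in CNOT4 (SE 0.29, edgeR adjusted p = 0.0100) and by 0.95 in ZFP36L1 (SE 0.15, edgeR adjusted p = 4.2e-06). DCP1A, an activator of DCP2, ranged from 61.7 to 201 CPM in NT with a median of 114 CPM and from 163 to 279 CPM in CNOT4 with a median of 217 CPM, a rise of 0.82 (SE 0.16, edgeR adjusted p = 0.00017). In MAZ it fell by 0.63 (SE 0.14, edgeR adjusted p = 0.0016), with libraries from 64.9 to 93.2 CPM. DCP2, the decapping enzyme, fell in ZFP36L1 by 0.45 (SE 0.16, edgeR adjusted p = 0.019), and its arm means ran from 64.3 CPM there to 93.8 CPM in ZMAT3, with 89.3 ± 31.6 CPM in NT. EDC4, a scaffold of the decapping enzyme, rose by 0.54 in CNOT4 and 0.45 in ZFP36L1. DDX6, a helicase that joins CCR4-NOT to decapping, rose by 0.33 in MAZ and 0.34 in ZMAT5. DCP1B and EDC3 were called in no arm.

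LSM14A, a DDX6-binding protein of processing bodies, was called in 5 arms by all reads, lower in CNOT4 (-0.95) and ZFP36L1 (-0.86) and higher in MAZ (0.30), ZNF706 (0.38) and ZMAT5 (0.58). These calls rest on multimapped reads, which made up 98.9% of its reads, and all 5 were lost with uniquely mapped reads.

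The 5′ to 3′ exonucleases XRN1, of the cytoplasm, and XRN2, of the nucleus, were called in no arm. XRN1 stood at 31.2 ± 15.4 CPM in NT, with arm means from 20.5 CPM in ZMAT3 to 34.6 CPM in CNOT4. XRN2 stood at 73.2 ± 36.1 CPM in NT, with arm means from 49.5 CPM in CNOT4 to 96.8 CPM in ZMAT3.

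In the exosome, EXOSC3, a cap subunit that contacts RNA, fell furthest of all members in CNOT4. It ranged from 106 to 281 CPM in NT with a median of 221 CPM, from 0, in the shallow library, to 94.1 CPM in CNOT4 with a median of 50.7 CPM, and from 53.6 to 92.8 CPM in ZFP36L1 with a median of 77.4 CPM. Neither arm overlapped NT, and no other arm was called. EXOSC3 fell by 2.15 in CNOT4 (SE 0.30, edgeR adjusted p = 1.1e-06) and by 1.53 in ZFP36L1 (SE 0.12, edgeR adjusted p = 6.7e-13). EXOSC6, a subunit of the ring, fell in 5 arms, by 0.61 in CNOT4, 0.58 in ZMAT5, 0.56 in PHF7, 0.44 in ZFP36L1 and 0.37 in ZMAT3. All 5 overlapped NT. Against the other 7 knockdowns only the call in CNOT4 was kept, and the ZMAT3 value was 0.00.

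Rises in the exosome were in the same 2 arms. EXOSC2, a cap subunit, ranged from 44.6 to 76.8 CPM in NT and from 86.5 to 143 CPM in ZFP36L1, the one member whose libraries lay wholly above NT in any arm (log2 change 0.91 ± 0.11, edgeR adjusted p = 3.3e-08). How many of all genes lay wholly above NT was not counted. Also in ZFP36L1, EXOSC4 rose by 0.62 and EXOSC8 by 0.40. DIS3L, the catalytic subunit of the cytoplasmic exosome, rose by 0.70 in CNOT4 (SE 0.26, edgeR adjusted p = 0.043) and by 0.52 in ZFP36L1 (SE 0.18, edgeR adjusted p = 0.021), from 41.8 ± 18.3 CPM in NT to 67.9 ± 25.8 and 59.7 ± 14.6 CPM. The CNOT4 call of DIS3L was lost under 5 of 10 alternatives, one of them the replicate number as a block. The other catalytic subunits were called in no arm. DIS3 stood at 181 ± 36.9 CPM in NT with arm means from 180 CPM in PHF7 to 211 CPM in ZMAT3, and EXOSC10 at 47.4 ± 12.6 CPM with arm means from 46.0 CPM in ZMAT3 to 60.3 CPM in ZNF706. EXOSC1, EXOSC5, EXOSC7 and EXOSC9 were not called either.

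In NMD, SMG1, the kinase of UPF1, ranged from 28.8 to 92.4 CPM in NT with a median of 54.1 CPM and from 42.0 to 194 CPM in CNOT4 with a median of 106 CPM. The ranges overlapped. It rose by 0.91 in CNOT4 (SE 0.24, edgeR adjusted p = 0.0042) and by 0.70 in ZFP36L1 (SE 0.17, edgeR adjusted p = 0.0013). UPF1 rose by 0.69 in CNOT4 (SE 0.14, edgeR adjusted p = 0.00022) and 0.43 in ZFP36L1, and UPF3B, which links UPF2 to the exon junction complex, by 0.70 (SE 0.16, edgeR adjusted p = 0.0011) and 0.53 (SE 0.13, edgeR adjusted p = 0.0015). UPF2, the adaptor between UPF1 and UPF3B, fell in ZFP36L1 from 44.1 ± 29.0 to 20.9 ± 4.64 CPM (-1.03 ± 0.28, edgeR adjusted p = 0.0036), and in CNOT4 its change of -0.98 missed the threshold. SMG5, which recruits decay enzymes to phosphorylated UPF1, rose in PHF7 by 0.50 (SE 0.15, edgeR adjusted p = 0.030). SMG6, the NMD endonuclease, was called in no arm, at 22.0 ± 13.4 CPM in NT with arm means from 19.7 CPM in CNOT4 to 27.0 CPM in ZNF706. All its 1651 counted bases are shared with HIC1, so its reads cannot be told apart from those of that gene. UPF3A was called in no arm, with 42.6% multimapped reads. Counted bases are also shared with another gene in CNOT1 (1085 bases, SETD6), DIS3 (984, BORA), EDC3 (493, CLK3), CNOT3 (372, LENG1), EXOSC8 (301, SUPT20H) and EXOSC9 (252, CCNA2), and the reads of CNOT3 were 97.1% multimapped.

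Levels were also set against the chase. In NT, edgeR called 0 of 51 members as varying over the 4 chase times, where 0.00825% of 12126 genes were called. At an unadjusted p under 0.05 there was 1 member, against 4.25% of all genes. DESeq2 called 0 members, where it called 33 genes as higher and 32 as lower of 12126. In 72 of the 76 called pairs the change had the same direction at all 4 chase times. In the other 4 it did at 3 of 4 times: EDC4 in CNOT4, and CNOT9, DCP2 and EDC4 in ZFP36L1. The pairs had been called from these same libraries over all 4 times. Agreement of direction was therefore largely built in and is no separate support for the calls. A term for dependence of the change on chase time called 0 members in every arm by edgeR. Over all genes it called 76 in CNOT4 (0.571%), 2 in BRCA1 (0.0157%) and none in the other 6 arms (0%). At an unadjusted p under 0.05 there were 0 members in CNOT4 (4.78% of all genes), 1 in MAZ (6.87%), 2 each in BRCA1 (5.71%), PHF7 (5.46%), ZFP36L1 (8.76%) and ZMAT3 (6.97%), 3 in ZMAT5 (5.99%) and 4 in ZNF706 (5.19%). DESeq2 and limma were not run for this term. The call was kept in each alternative tried for 30 of the 76 pairs, 10 in CNOT4, 16 in ZFP36L1 and 4 elsewhere, which were CNOT6 in PHF7 and LSM7 in MAZ, ZMAT5 and ZNF706. It was lost in at least 4 alternatives for CNOT6 and LSM14A in ZNF706, CNOT7 and DIS3L in CNOT4, CNOT9 in MAZ and ZMAT5, LSM14A in MAZ, EDC4 in ZFP36L1 and EXOSC6 in ZMAT3.

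A wider list of 56 decay genes that are no members, such as adaptors, tail-binding proteins and further NMD factors, gave 55 tested genes. Of these 11 were higher and 12 lower in CNOT4 (13.5% of all genes each way), 13 and 18 in ZFP36L1 (21.7% and 18.3%), 2 and 3 in MAZ (5.19% and 3.55%), 3 and 4 in PHF7 (3.89% and 4.53%), 3 and 4 in ZMAT3 (5.49% and 4.75%), 5 and 5 in ZMAT5 (5.29% and 4.22%), 0 and 6 in ZNF706 (2.85% and 2.29%), and none in BRCA1 (0.0785% either way). PNRC2, which links UPF1 to DCP1A, rose in MAZ, PHF7, ZMAT3 and ZMAT5 by 0.47 to 0.80 and fell in CNOT4 by 0.69 and in ZFP36L1 by 0.74. TNRC6A, the GW182 protein that recruits CCR4-NOT to microRNA targets, rose in CNOT4, ZFP36L1 and ZMAT5 and fell in MAZ, PHF7 and ZNF706. RBM8A, of the exon junction complex, rose in CNOT4, ZFP36L1 and MAZ. PDE12, a mitochondrial deadenylase, fell in 5 arms. MAGOH, DCPS and PABPN1 each fell in 4. The genes named here were chosen for their number of calls, and all arms share the NT libraries. How many of all genes were called in as many arms was not counted, so recurrence does not set them apart.

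Loss of label gave each member a half-life. Conversions over covered T positions were averaged over replicates, set to 1 at 0 h and fitted with a first-order curve where R2 exceeded 0.6. In NT 37 members had such a curve, with a median half-life of 3.83 h against 3.27 h over 5544 genes. Without replicate 1 the order turned, 2.97 h against 3.29 h, and without replicate 2 or 3 it held. With a filter of 10 CPM the medians were 3.83 and 3.65 h. The T>C rate of all members pooled, divided by that of all genes in the same library, was 1.11 ± 0.053 at 0 h and 0.881 ± 0.080 at 8 h in NT (SD, n = 3), and in each of the 9 arms its mean was above 1 at 0 h and below 1 at 8 h. By this pooled measure members lost label faster than all genes, unlike the median half-lives in NT. The pooled rate weights each gene by its covered T positions, whereas the median half-life counts each gene with a curve once. The measures are thus different quantities and both can hold.

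The shortest half-lives in NT were those of XRN1 (0.761 h), CNOT4 (1.18 h), UPF2 (1.53 h), DCP1A (1.56 h) and EXOSC1 (1.88 h). All 5 are shorter than the first chase interval, and replicate curves for XRN1 gave 0.335 to 1.37 h. The longest were LSM3 (17.8 h), LSM4 (10.3 h), EXOSC7 (10.2 h), LSM5 (8.48 h) and EXOSC9 (6.65 h), of which the first 4 exceed the whole chase and rest on a small loss of label.

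By the median over arms CNOT4 had the shortest half-life. Its T>C rate in the 3 NT replicates was 0.556%, 1.76% and 1.68% at 0 h, 0.181%, 0.596% and 0.419% at 2 h, 0.429%, 0% and 0.0060% at 4 h, and 0.0045%, 0.0083% and 0.0040% at 8 h. One replicate was low at 0 h and high at 4 h, and all 3 were near 0 at 8 h, where 4 conversions in all were seen over at least 22001 covered T positions per library. Its half-life ranged from 1.18 to 2.28 h over the 9 arms with a median of 1.63 h, always among the shortest 16.9% of genes. DCP1A was next, from 1.56 to 2.60 h with a median of 1.86 h, and its T>C rate in NT fell from 2.60%, 3.25% and 2.63% to 0.0140%, 0.275% and 0.0083%. EXOSC6 held a narrow range, 2.49 to 3.18 h. DCP1B, at 2.52 h, had a curve in 4 arms only.

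LSM3, LSM4, LSM5 and LSM7 stood at the other end, but not every LSM mRNA did. LSM1 had a median of 3.42 h, ranging from 2.63 to 3.93 h over 9 arms. LSM14A had a median of 4.25 h, LSM6 of 5.66 h and LSM2 of 6.33 h. LSM3 ranged from 9.21 to 41.7 h over 8 arms with a median of 13.1 h, always above 88.8% of the genes with a curve. LSM7 had a median of 10.9 h over 3 arms, LSM4 of 10.3 h over 7 and LSM5 of 9.61 h over 7. The T>C rate of LSM4 in NT was 1.76%, 1.48% and 1.48% at 0 h and 1.22%, 0.762% and 1.12% at 8 h, and that of LSM5 1.92%, 1.57% and 1.62% and then 1.11%, 0.911% and 0.892%. Label was thus still present in all 3 replicates of both after 8 h. By role, the middle of the 9 arm medians was 7.90 h for LSM1 to LSM7, 4.41 h for the rest of decapping, 4.13 h for the exosome, 4.10 h for NMD and 3.23 h for CCR4-NOT. Arm medians of the LSM genes ran from 4.39 to 12.6 h and those of CCR4-NOT from 2.55 to 4.45 h.

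**Figure D3:**
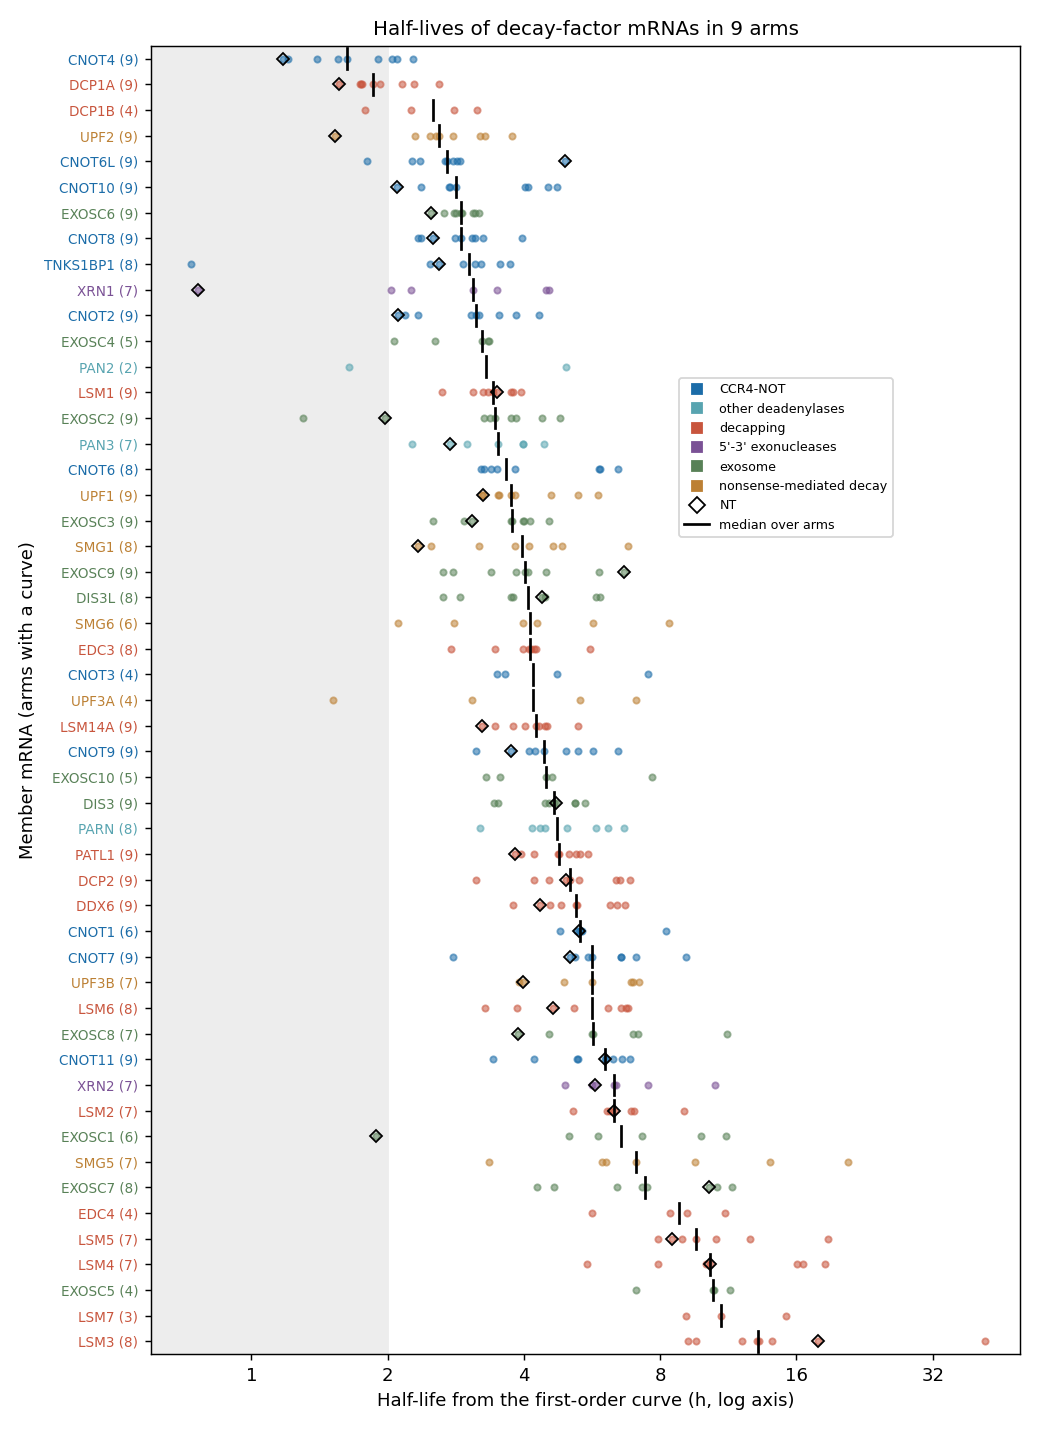
Half-life of each member (y axis) in each arm where a curve was obtained (points, x axis in hours on a log scale), with NT as diamonds and the median over arms as a bar. The shading marks half-lives under the first chase interval of 2 h. CNOT4 and DCP1A lie at the short end with medians of 1.63 and 1.86 h, and LSM3, LSM4, LSM5 and LSM7 at the long end.

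Both motifs stood in the members at shares close to those of expressed genes. TATTTAT was found in the counted bases of 21 of 51 members, 41.2%, against 32.1% of all genes and 40.7% of genes over 5 CPM in NT. TGTANATA was found in 20 members, 39.2%, against 26.2% and 34.6%. The 21 members with TATTTAT had a median half-life over arms of 3.96 h and the 30 without it 5.48 h, but the first had a median of 3737 counted bases and the second 1214. For TGTANATA the medians were 4.22 and 4.19 h, and the site of CNOT4 printed above holds the same TGTACATA as that of LSM5, whose half-life was among the longest. A match is only a match of letters in the counted bases.

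**Figure D4:**
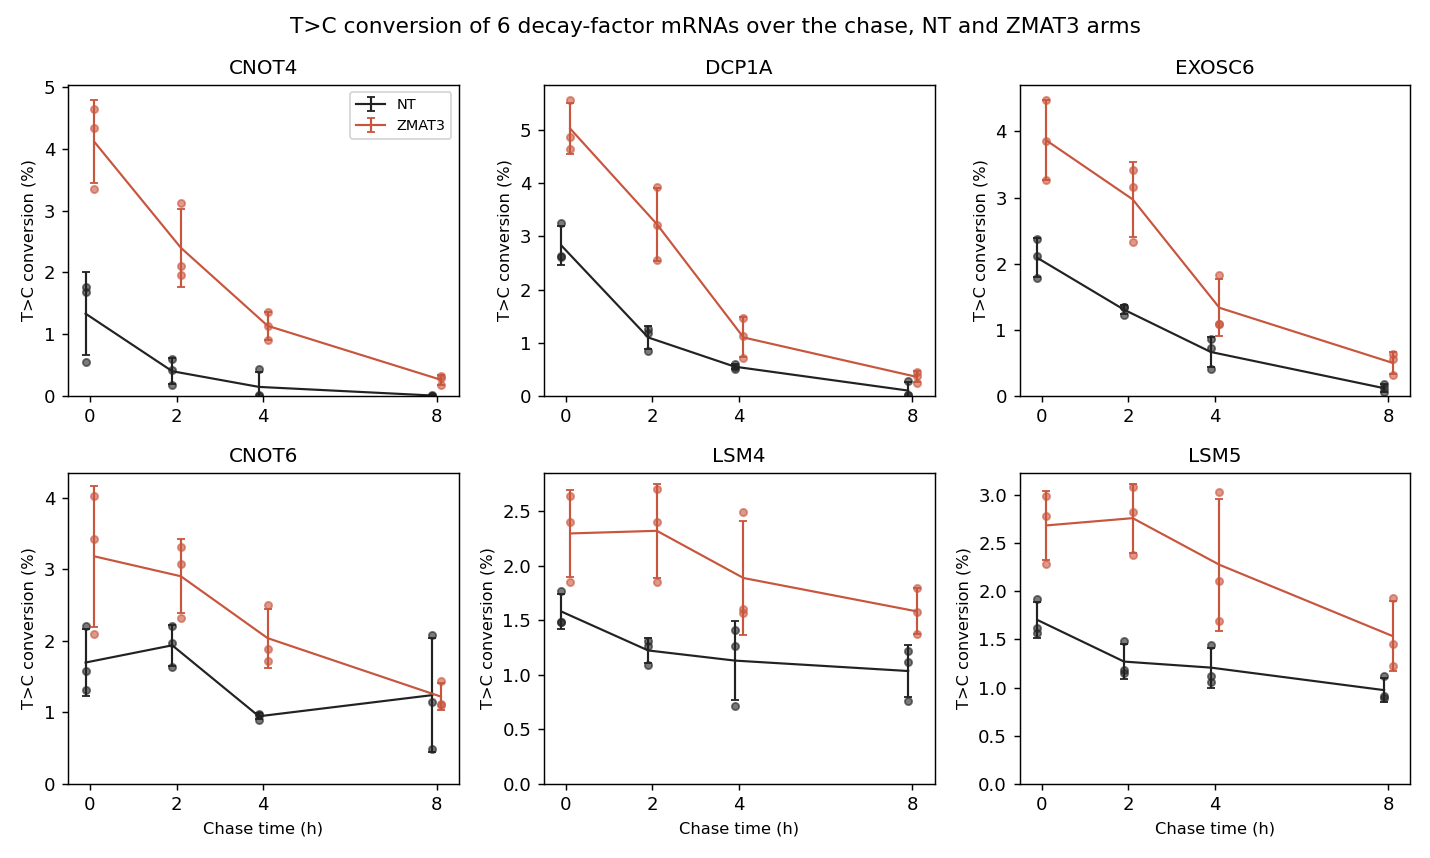
T>C conversions per covered T position, in percent (y axis), over hours of chase (x axis) for CNOT4, DCP1A, EXOSC6, CNOT6, LSM4 and LSM5 in NT and ZMAT3. Points are replicates and lines join the means of 3. CNOT4 in NT falls to between 0.0040% and 0.0083% at 8 h, LSM5 to between 0.892% and 1.11%, and CNOT6 spans 0.485% to 2.08%.

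The median log2 shift of members with a curve in both arms was 0.55 in ZMAT3 (33 of 37 longer; all genes 0.54), 0.47 in ZMAT5 (28 of 35; 0.37), 0.33 in PHF7 (30 of 36; 0.46), 0.22 in CNOT4 (17 of 26; 0.23), 0.21 in MAZ (27 of 36; 0.33), 0.19 in ZNF706 (28 of 34; 0.27), 0.03 in BRCA1 (14 of 27; 0.02) and -0.02 in ZFP36L1 (17 of 37; 0.14). These are descriptions with no test, and members within an arm share its libraries. The ZFP36L1 shift rose to 0.24 without replicate 2, the CNOT4 shift ran from -0.52 to 0.48 when single replicates were left out, that of PHF7 from 0.04 to 0.70, that of ZMAT3 from 0.14 to 1.04, that of ZNF706 from 0.0046 to 0.41 and that of BRCA1 from -0.12 to 0.16. In PHF7 the 0.70 came without replicate 3, the replicate that holds the shallow library. Curves over 0 to 4 h alone left out the 8 h libraries. The shift was then 0.31 in CNOT4 (15 of 21 longer, all genes 0.14) and 0.71 in MAZ (23 of 27, 0.66). In the other arms it ran from 0.17 in BRCA1 (all genes -0.02) to 0.77 in ZMAT3 (0.74).

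The decay rate of single members was tested as the difference in slope of conversions over chase hours, with edgeR, in the 46 to 48 members over 5 CPM. No member passed in any arm, where 0% of 7039 genes passed in BRCA1, 0.0579% of 6914 in CNOT4, 0.0402% of 7463 in MAZ, 0.307% of 7488 in PHF7, 0.0815% of 7363 in ZFP36L1, 0.573% of 7499 in ZMAT3, 0.0684% of 7312 in ZMAT5 and 0.0136% of 7328 in ZNF706. At an unadjusted p under 0.05 there were 2 members in BRCA1 (7.23% of all genes), 3 in CNOT4 (8.04%), 1 in MAZ (6.85%), 4 in PHF7 (10.1%), 4 in ZFP36L1 (9.67%), 6 in ZMAT3 (11.2%), 4 in ZMAT5 (9.27%) and 2 in ZNF706 (7.45%). Limma called 0 members in each arm. Over all genes it called 168 slower of 7488 in PHF7 and 163 slower and 2 faster of 7499 in ZMAT3. It called 28 slower and 5 faster of 7363 in ZFP36L1, and at most 10 slower in each other arm. Rates were slower than in NT for 38 of 46 members in CNOT4 (74.8% of all genes), 35 of 47 in ZMAT5 (62.6%), 33 of 47 in ZMAT3 (65.0%), 29 of 46 in ZNF706 (54.7%), 28 of 48 in PHF7 (62.4%), 22 of 47 in BRCA1 (50.8%), 22 of 47 in ZFP36L1 (3241 of 7363 genes) and 20 of 46 in MAZ (46.0%). Without the 8 h libraries they were slower for 30 of 46 in CNOT4 (63.6% of all genes) and for 35 of 46 in MAZ (74.5%). Elsewhere they were slower for 16 of 47 in BRCA1 (46.6%) to 29 of 48 in PHF7 (66.2%). In MAZ the slopes over 8 h thus ran against the half-lives, of which 27 of 36 were longer. The median difference of slope, on the log2 scale per h and positive where decay was slower, was 0.09 over members and 0.08 over all genes in CNOT4, 0.05 and 0.04 in ZMAT5, 0.06 and 0.04 in ZMAT3, and -0.03 and -0.01 in MAZ.

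The members with the smallest p were often the same few. CNOT6 came first in MAZ, PHF7, ZFP36L1, ZMAT5 and ZNF706, with a rate of 0.054 per h in NT and 0.183 to 0.262 per h in these arms. Its smallest adjusted p was 0.140 (edgeR, PHF7). All 5 comparisons share the NT value, which is uncertain, since the 3 NT replicates at 8 h gave 1.15%, 2.08% and 0.485% and no NT curve passed the R2 minimum. CNOT4 came first in the libraries labelled CNOT4, at 0.156 per h against 0.654 per h in NT (edgeR adjusted p = 0.413), and first in ZMAT3, at 0.350 per h (edgeR adjusted p = 0.306). The T>C rate of CNOT4 in NT was near 0 at 8 h, so its NT slope is uncertain too. By the curves its half-life was at most 2.28 h in any arm, shorter than a slope of 0.156 per h gives. Slope and curve thus differed in the libraries labelled CNOT4. XRN1 was among the first 3 in CNOT4, MAZ and ZFP36L1, LSM14A in ZMAT3 and ZMAT5, EXOSC6 in PHF7 and ZMAT5, and PAN3 in CNOT4 and ZNF706. UPF1, LSM4 and CNOT1 in BRCA1, EXOSC4 in MAZ, XRN2 in PHF7, CNOT11 in ZFP36L1, CNOT9 in ZMAT3 and CNOT4 in ZNF706 made up the rest.

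Labelling at 0 h, tested against the pooled rate of each library, was called for 0 members in every arm by edgeR, where 0.0145% of all genes were called in CNOT4, 0.0407% in ZFP36L1 and 0% in the other 6 arms. At an unadjusted p under 0.05 there were 4 members in BRCA1 (3.75% of all genes), 2 in CNOT4 (5.21%), 2 in MAZ (7.45%), 4 in PHF7 (10.6%), 2 in ZFP36L1 (11.1%), 5 in ZMAT3 (9.04%), 0 in ZMAT5 (4.64%) and 2 in ZNF706 (5.7%). With T coverage alone in the offset, which leaves each arm's overall labelling in the comparison, 23 members were called higher in MAZ (37.5% of all genes), 17 higher in ZMAT3 (31.1%) and 3 lower in ZMAT5 (3.62%). Against the pooled rate, CNOT9 was among the 3 smallest p in CNOT4, PHF7, ZMAT3, ZMAT5 and ZNF706, lower by 0.38 to 0.70 on the log2 scale, and LSM4 in PHF7, ZMAT3 and ZMAT5, lower by 0.23 to 0.38. LSM7 was higher by 0.57 to 0.92 in BRCA1, MAZ and ZFP36L1, and CNOT8 by 0.50 in MAZ and 0.52 in ZFP36L1. EXOSC3 in CNOT4 and ZMAT5, CNOT7 in CNOT4, DDX6 in MAZ and ZMAT3, LSM2 in BRCA1, PARN in ZFP36L1, and EXOSC9 and CNOT4 in ZNF706 were the others. PAN2 had the smallest p in BRCA1 and PHF7, but held 0 conversions in NT at 0 h over 0 to 6915 covered T positions per library, so no fold is given.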

How the data were processed

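The authors aligned SLAM-seq reads (QuantSeq 3′ libraries) to hg38 with SlamDunk 0.4.3, kept multimapping reads, and deposited a table per library of 69079 3′ UTR intervals. The deposited columns used are counts of reads, of multimapped reads, of T>C reads, of T>C conversions and of covered T positions. The deposited CPM, scaled by the authors to the mapped reads of a library, served as the filter on low values. The deposited conversion rate is the fraction of covered T positions read as C, and was recomputed here from the summed counts. No per-sample column lacked a sample. The members and the gene lists were chosen with earlier results of these data known. Groups came from the sample labels.

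Here all columns were summed per Ensembl gene and named with GENCODE 44 (19501 of 19761 genes). Levels are CPM, scaled by TMM over the 108 libraries. Each hairpin arm was compared with NT over 12 libraries each in edgeR 4.0.16 (quasi-likelihood test, TMM, filterByExpr, chase time as a factor, 19 residual degrees of freedom, Benjamini-Hochberg over all genes tested, fold over 1.2). Decay was the slope of conversions over chase hours with an offset of log T coverage. It was tested where 2 or more replicates exceeded 5 CPM at each time of both arms. Label at 0 h was tested with the pooled rate in the offset as well. Half-lives followed the study's methods. The scripts were tested on simulated data. Alternatives were DESeq2 1.42.0, limma 3.58.1 for decay, other filters, uniquely mapped reads, a replicate block, left-out replicates, times and shallow libraries, and the other 7 knockdowns as control. Named members were CNOT4 and the catalytic subunits, every called member or the 6 largest each way where over 10 were called, those called in most arms, the 5 longest and 5 shortest half-lives, and the 3 smallest p where none was called. Further members are named by count. Members with shared or multimapped bases are marked. PCR reads carry no molecular identifiers here. No pair of replicates agreed within sampling noise (lowest chi-square per gene 5.25). Same-numbered libraries of different arms did not deviate together (correlations -0.059 to 0.079). A gene of the wider list is counted with it but not reported by name here.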

Additional observations from a re-analysis of the deposited data

How the results depend on the processing

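Of the 76 called pairs of member and arm, DESeq2 kept 76, the fit without a low-count filter 75, uniquely mapped reads 67 of 74, leaving out the 8 h libraries 64, and leaving out replicate 1, 2 or 3 in turn 50, 47 and 59. With the replicate number as a block, 75 pairs kept their call and the counts of members were 0 in BRCA1, 21 in CNOT4, 6 in MAZ, 7 in PHF7, 27 in ZFP36L1, 4 in ZMAT3, 7 in ZMAT5 and 4 in ZNF706. The numbers do not pair the samples (no correlation over 0.1), so the block is only an alternative.

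Against the other 7 knockdowns, the members called were 7 in BRCA1 (19.1% of all genes), 27 in CNOT4 (47.1%), 18 in MAZ (14.6%), 13 in PHF7 (19.9%), 28 in ZFP36L1 (41.5%), 10 in ZMAT3 (14.6%), 14 in ZMAT5 (20.2%) and 14 in ZNF706 (14.3%). That control includes the CNOT4 and ZFP36L1 libraries. Of the 76 pairs, 58 kept their call, 12 lost it and 6 changed direction: CNOT9 in MAZ (0.0188) and ZFP36L1 (0.0653), LSM4 in MAZ (0.05), EXOSC6 in ZMAT3 (0.0012), CNOT11 in ZMAT5 (0.0497) and CNOT6 in ZNF706 (0.0375). DESeq2 called 1 member in BRCA1, where it called 30 genes higher and 23 lower of 12735. ZNF706 had 2 with uniquely mapped reads (360 genes higher and 281 lower) and 2 without the 8 h libraries (234 and 182). Leaving out single replicates gave 13 to 23 members in CNOT4, 1 to 3 in MAZ, 1 to 9 in PHF7 and 1 to 3 in ZNF706. Calls over all genes varied as well. In CNOT4 they were 894 higher and 1025 lower without replicate 2, and 1833 and 1844 without replicate 3. In PHF7 they were 84 and 195 without replicate 1, and 624 and 580 without replicate 3, the replicate that holds the shallow 8 h library.

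With T coverage alone in the offset, so that the arm's overall labelling counts, labelling at 0 h was called for 23 members in MAZ (37.5% of all genes) and 17 in ZMAT3 (31.1%), all higher, and 3 in ZMAT5 (3.62%), all lower. T>C reads over reads called 1 higher in ZFP36L1, where it called 13 genes higher and 16 lower of 7363. A straight line gave a median half-life of 3.07 h in NT and a shift of 0.41 in ZMAT5. Leaving out single replicates gave 2.97 to 4.13 h in NT (3.20 to 3.32 h over all genes), and shifts of 0.0159 to 0.2429 in ZFP36L1 and 0.39 to 0.50 in ZMAT5. Curves without the 8 h libraries, an alternative chosen after seeing the data, gave shifts of 0.7066 in MAZ and 0.1946 in ZFP36L1. Over all genes these shifts were 0.66 and 0.34. The cause of these differences was not tested. Half-lives under 2 h or over 8 h lie outside the sampled chase, and members under 5 CPM have none.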
